A study of Sus scrofa with 4 samples.

Results

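The genes of the general transcription machinery were examined for histone H4 lysine 12 lactylation (H4K12la) in the liver of sows in late gestation. They were taken by gene symbol alone: the coding genes of the RefSeq annotation of Sscrofa11.1 that encode subunits of RNA polymerases I, II and III, the TBP-associated factors, the general factors TFIIA to TFIIH and TFIIIA and TFIIIC, Mediator, and factors of pausing and elongation. The rule found 119 of the named coding genes, and 118 of them lie on chromosomes 1 to 18 and X, out of 16303 named coding genes on chromosomes 1 to 18, X and Y. NELFB lies on an unplaced sequence and was not analysed here. The low bile acid group, which the series calls normal, and the high bile acid group each gave 1 library precipitated with an antibody against H4K12la and 1 input library, all from female liver and labelled as hepatocytes. The labels give neither the number of sows behind a library nor the breed, the age or the way in which bile acids came to be high. With 1 library per group a difference cannot be set against replicate spread, and no test between the groups was made.

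H4K12la is an acyl mark that depends on cellular lactate, and histone acylation near gene starts is generally associated with active chromatin. RNA polymerase I transcribes the large ribosomal RNA precursor, and RNA polymerase II transcribes messenger RNA. Transfer RNA and the smallest ribosomal RNA are transcribed by RNA polymerase III. TFIID, with the TATA-binding protein TBP at its centre, and the other general factors place RNA polymerase II at a promoter, Mediator connects it with bound activators, and P-TEFb, NELF and their partners govern its release into elongation. These genes are expressed in nearly all cell types, the hepatocyte included.

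The data were 2 lists of peaks, called for each precipitated library against its own input, with 28283 peaks for the high bile acid library (the high list) and 5735 for the low one (the low list). The fold of a peak is the authors' enrichment at its summit over the local background, and p and q are the values of their peak caller. From the fold and p of each peak the number of fragments at the summit was recovered, with a median of 9 in the high and 10 in the low list, over an expected number of at least 1.98 and 1.94. A q of 0.05 or less was reached by 608 peaks of the high and 13 of the low list, and most peaks therefore rest on few fragments close to the limit of a call. Intervals of 95% on shares are exact binomial (Clopper-Pearson), and those on fragment numbers exact Poisson. Both cover counting error only. Of 6 hepatocyte marker genes, TTR and CYP7A1 carried high-list gene-end peaks, SERPINA1 and TF had other high-list peaks within 10 kb, and ALB and APOA1 had none. The low list held no peak that close to any of the 6 (95% interval 0 to 45.9%). That interval holds the share of all named coding genes with one, 22.0%. In the high list 2 of 6 had a gene-end peak, beside 18.4% of all named coding genes, and 4 of 6 a peak within 10 kb, beside 62.8%.

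A gene-end peak is one that comes to within 1 kb of either annotated end of the gene, inside or outside it (the gene-end window). The annotation used here gives no strand, so the end that holds the start site could not be told from the other. In the high list 17 of the 118 members (14.4%; 95% interval 8.62 to 22.1%) had a gene-end peak, beside 18.4% of all named coding genes. In the low list 10 members (8.47%; 4.14 to 15.0%) had one, beside 3.59% of all named coding genes. The high-list share was near its background, whose value lies in the interval, and the low-list share was above its own, on 10 genes. MED26 was the one gene in both lists, or 0.847% of the members beside 0.883% of all named coding genes. The other 9 members of the low list had a gene-end peak there only (7.63%; 3.55 to 14.0%, beside 2.71%). These members were chosen with earlier results of the lists known, POLR1D among them, so the counts are descriptions. No gene-end peak of a member reached a q of 0.05, beside 0.816% of all named coding genes with such a peak in the high list. One of fold 4 or more was found at 1 member in the high list, GTF3A, beside 0.994%, and at 1 in the low list, POLR1D, beside 0.0920%.

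**Figure D1:**
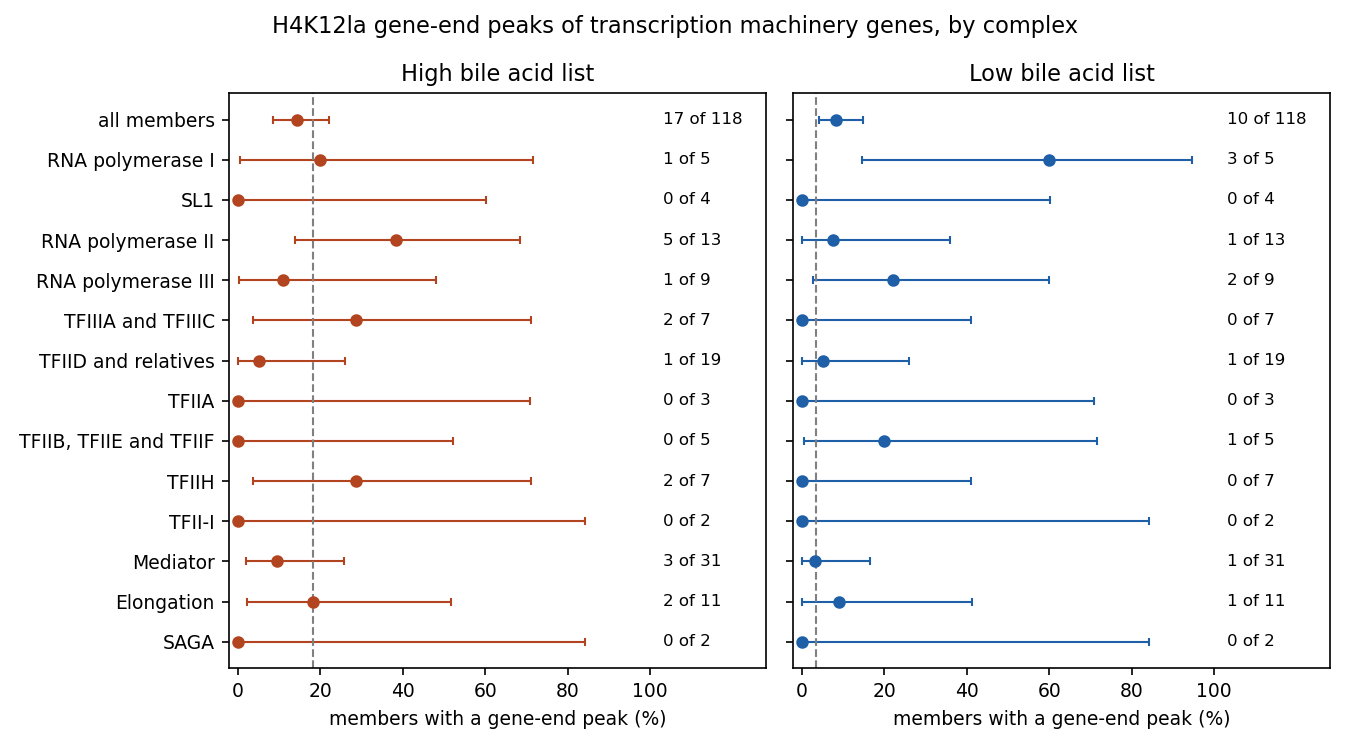
Share of members with a gene-end peak (percent, x axis) in each complex for the high list (left) and the low list (right). Points are shares, bars are exact binomial 95% intervals, the numbers at the right give the count, and the dashed line is the share of all named coding genes (18.4% and 3.59%); RNA polymerase II has 5 of 13 members in the high list, and RNA polymerase I has 3 of 5 in the low list.

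Of the 13 complexes, RNA polymerase I had the most low-list gene ends. They were found at 3 of 5 genes (60.0%; 14.7 to 94.7%), beside 3.59% of all named coding genes. The complex is singled out as the extreme of 13, so this share is a description. In the high list 1 of the 5 had a gene-end peak, beside 18.4%, a value that its 95% interval holds. POLR1D encodes a small subunit that RNA polymerases I and III share. Its low-list peak, at chromosome 11, 5043786 to 5044191, had a fold of 4.59 and a q of 0.0533, with 15 fragments at the summit (95% interval 8.40 to 24.7) where 2.09 were expected. That is the highest fold of the 39 low-list peaks near members, and higher than 99.8% of the low list. It lies 83 bp outside the lower end of the gene, which is annotated at 5044274 to 5045921, and the coding gene LOC106505238 also ends there. At that expected number 6 fragments would have sufficed for a call in the high library, which is below that interval. The high list instead held a peak of fold 2.53 (7 fragments) at 5047233 to 5047688, which starts 1312 bp past the opposite end and so falls just outside the window.

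POLR1B encodes the second-largest subunit of RNA polymerase I. It had a low-list peak of fold 2.55 (8 fragments; 3.45 to 15.8) 91 bp outside its upper end, at chromosome 3, 43974374 to 43974672. POLR1E, another subunit gene, had one of fold 2.98 (9 fragments) 724 bp outside its upper end. Both rest on fewer than 10 fragments. The high list held a peak elsewhere near each gene, of fold 2.78 in the flank of POLR1B and 2.56 in the body of POLR1E.

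POLR1A encodes the largest, catalytic subunit. Its gene-end peak was in the high list, of fold 3.36 (9 fragments; 4.12 to 17.1) and inside the upper end. The gene, at chromosome 3, 58670377 to 58750441, also held an interior high-list peak of fold 4.07 (q 0.0316) at 58732186 to 58732639, and 2 interior low-list peaks of fold 3.67 and 2.70. POLR1C, shared with RNA polymerase III, had only a high-list peak of fold 2.60, 6881 bp outside the gene. Within 10 kb, all 5 genes thus had a high-list peak (95% interval 47.8 to 100%, beside 62.8% of all named coding genes). A low-list peak lay there at 4 of 5 (95% interval 28.4 to 99.5%, beside 22.0%).

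Of the 4 genes of SL1, the TBP-containing factor that selects ribosomal RNA promoters, none was called at a gene end. TAF1A had flanking high-list peaks of fold 3.91 (q 0.0735) and 2.84, and TAF1D had one of fold 3.36. TAF1B had an interior peak in each list, of fold 2.71 (high) and 2.68 (low), and TAF1C had no peak within 10 kb.

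At RNA polymerase II 5 of 13 genes were called at a gene end from the high list (38.5%; 13.9 to 68.4%, beside 18.4% of all named coding genes). The low list gave 1 of 13 (7.69%; 0.195 to 36.0%, beside 3.59%), and both intervals hold the background. POLR2A encodes the largest subunit, which bears the C-terminal repeat domain. Its high-list peak lies 142 bp outside the lower end of the gene, at chromosome 12, 52779253 to 52779691, with a fold of 3.20, a q of 0.187 and 11 fragments (5.49 to 19.7) for 2.75 expected. This peak is also at the end of the coding gene SLC35G6, so it belongs to POLR2A no more than to that neighbour. Further peaks of fold 3.30 and 2.86 lie 3518 and 7200 bp outside the gene on the same side.

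POLR2F, a subunit of all polymerases, had a peak at each end in the high list. The lower one, at chromosome 5, 9904800 to 9905252, had a fold of 3.31 (10 fragments over 2.32 expected), and the upper one, shared with C5H22orf23, had a fold of 2.29 (10 fragments over 3.80 expected). The fragment number was the same at both, and the fold differed through the expected number. POLR2G, whose product joins that of POLR2D in the stalk of the enzyme, had a peak of fold 3.36 (9 fragments) inside its upper end. POLR2K, a zinc-binding subunit of all polymerases, had one of fold 3.09 (9 fragments) across its upper end, at chromosome 4, 36852470 to 36852983. POLR2I had the lowest fold of the members' gene-end peaks, 1.91 (p 0.00967) from 10 fragments over 4.75 expected, and shared it with OVOL3.

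POLR2D was the one low-list gene of RNA polymerase II at a gene end. Its peak overlaps the lower end, at chromosome 15, 59479372 to 59479670, with a fold of 3.20 (10 fragments; 4.80 to 18.4). A second low-list peak of fold 3.08, which starts at 59475226, and a high-list peak of fold 2.86, which ends at 59474967, lie 259 bp apart at their nearest edges, both in its flank. Within 10 kb, 12 of 13 genes of the complex had a high-list peak (92.3%; 64.0 to 99.8%), beside 62.8% of all named coding genes. In the low list 2 of 13 did (15.4%), beside 22.0%. POLR2L (fold 3.70), POLR2C (3.13), POLR2E, POLR2H and POLR2J had flanking peaks only. POLR2B, the gene of the second-largest subunit, had an interior low-list peak of fold 3.14 and a flanking high-list peak of fold 2.65. POLR2M, which encodes an associated regulator, had none.

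Of the 7 genes for subunits that more than 1 polymerase uses (POLR1C, POLR1D, POLR2E, POLR2F, POLR2H, POLR2K and POLR2L), all had a high-list peak within 10 kb, beside 62.8% of all named coding genes. POLR1D alone, 1 of 7, had a low-list peak there, beside 22.0%.

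At the 9 genes of RNA polymerase III, gene ends were called for 1 gene from the high list (95% interval 0.281 to 48.2%), beside 18.4% of all named coding genes. From the low list they were called for 2 (22.2%; 2.81 to 60.0%), beside 3.59%, and both intervals hold the background. POLR3A encodes the largest subunit. Its low-list peak of fold 3.08 (10 fragments) lay 980 bp outside the lower end, just inside the window, and no high-list peak lay within 10 kb. POLR3D had a low-list peak of fold 2.45 (10 fragments; 4.80 to 18.4) across its lower end, at chromosome 14, 6520673 to 6521198, where the microRNA gene MIR320 also ends. In the high list it had an interior peak of fold 2.86 and a flanking one of 2.68. POLR3G had a broad high-list peak of 820 bp inside its lower end, of fold 2.08 (9 fragments over 3.80 expected), shared with MBLAC2. Among the rest, POLR3F had 2 flanking low-list peaks of fold 3.64 each, and POLR3B had an interior high-list peak of fold 3.36. POLR3C and POLR3K had flanking peaks of both lists, and POLR3E had none. Within 10 kb, 6 of 9 genes had a peak in each list (66.7%; 29.9 to 92.5%), beside 62.8% (high) and 22.0% (low).

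TFIIIA and TFIIIC recruit RNA polymerase III, and 2 of their 7 genes carried gene-end peaks, all from the high list. That is 28.6% (3.67 to 71.0%), beside 18.4% of all named coding genes. GTF3A, which encodes TFIIIA, the factor for 5S ribosomal RNA genes, had the highest fold of the high-list gene ends, 4.03 (q 0.0735). It had 11 fragments (5.49 to 19.7) for 1.98 expected, at chromosome 11, 4868131 to 4868485, inside the upper end. The same gene had an interior low-list peak of fold 3.33 on 14 fragments. GTF3C1, the largest TFIIIC subunit gene, had a high-list peak of fold 3.36 (9 fragments) inside its upper end and 3 interior ones of fold 2.50 to 3.36. Its interior low-list peak had a fold of 3.63 and 12 fragments (6.20 to 21.0), where 6 would have sufficed for a call in the high library. GTF3C2 and GTF3C4 had flanking high-list peaks of fold 2.86 and 2.60. GTF3C3 had an interior low-list peak of fold 2.98, and GTF3C5 and GTF3C6 had none.

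TFIID and its relatives had gene-end calls at 1 of 19 genes in each list (5.26%; 0.133 to 26.0%). That interval holds the share of all named coding genes in both lists, 18.4% (high) and 3.59% (low). TAF9, whose product is also a subunit of the SAGA coactivator, had a high-list peak of fold 3.69 (q 0.139; 10 fragments over 1.98 expected), 320 bp outside its upper end at chromosome 16, 47499888 to 47500280. The ends of AK6 and RAD17 lie in the same window. TBPL1, a TBP-related gene, had a low-list peak of fold 3.06 (12 fragments; 6.20 to 21.0) inside its upper end. TBP itself, at chromosome 1, 5669 to 23675, had 1 interior low-list peak of fold 2.91 (9 fragments), at 19234 to 19610, and no high-list peak within 10 kb.

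TAF4, the gene of a scaffold subunit of TFIID, held the strongest high-list peak near any member and 2 more of similar strength. They were interior, at chromosome 17, with a fold of 4.40 (q 0.0190; 13 fragments over 2.18 expected) at 61524045 to 61524459, of 4.03 (q 0.0735) at 61527381 to 61527761, and of 3.90 (q 0.0349; 14 fragments) at 61468929 to 61469283. They lie 2377 to 5643 bp inside the gene ends, outside the window, and no low-list peak lay within 10 kb. TAF3, whose product reads a methyl mark at promoters, had interior peaks of fold 3.09 and 2.60 in the high list and of 3.70 in the low list (12 fragments; 6.20 to 21.0). TAF8, TAF6, TAF10, TAF13 and TAF15 had flanking high-list peaks only, with a fold of 3.36 for TAF8. The other 9 genes of this group, TAF1, TAF2, TAF4B, TAF5, TAF7, TAF9B, TAF11, TAF12 and TBPL2, had no peak of either list within 10 kb.

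Among the remaining general factors, GTF2B, the gene of TFIIB, had a low-list peak of fold 2.86 (9 fragments) inside its lower end and an interior high-list peak of fold 2.93. It was the one gene-end call among the 5 genes of TFIIB, TFIIE and TFIIF. High-list peaks lay in the body of 4 of 5 genes (95% interval 28.4 to 99.5%), beside 45.4% of all named coding genes, which that interval holds. Besides GTF2B they had a fold of 2.78 and 2.08 at GTF2E2, 2.65 at GTF2F1 and 2.58 at GTF2F2. GTF2F2 also had interior low-list peaks of fold 3.34 and 2.97, GTF2F1 had a flanking one of 2.50, and GTF2E1 had no peak. Of the TFIIA genes, GTF2A1L had an interior low-list peak of fold 2.39 and GTF2A1 and GTF2A2 had none.

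TFIIH opens the promoter and phosphorylates RNA polymerase II. At a gene end 2 of its 7 genes here were called (28.6%; 3.67 to 71.0%, beside 18.4% of all named coding genes), both from the high list. CDK7, the gene of its kinase, had 2 peaks at its upper end at chromosome 16. That of fold 3.36 (9 fragments; 4.12 to 17.1) at 47445371 to 47445739 is inside the gene, and that of fold 2.35 at 47446303 to 47446597, which lies 508 bp outside it, rested on 6 fragments over 1.98 expected. GTF2H2, the gene of a core subunit, had a peak of fold 2.96 (9 fragments) inside its lower end and an interior one of 3.36. GTF2H3 had an interior low-list peak and a flanking high-list peak, of fold 3.64 and 3.02. GTF2H5 had a flanking peak of fold 3.45 and CCNH, the cyclin partner of CDK7, an interior one of 2.08, both in the high list. GTF2H1 and GTF2H4 had no peak within 10 kb. GTF2I and GTF2IRD1, neighbours that encode TFII-I factors of signal-dependent transcription, had interior peaks in both lists. Those of GTF2IRD1 had a fold of 3.70, 3.65 and 2.56 (high) and 2.80 (low), and those of GTF2I 3.67 (high) and 3.15 (low).

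Mediator was the largest complex, with 31 genes, and both of its gene-end intervals hold the background. High-list gene-end peaks were carried by 3 genes (9.68%; 2.04 to 25.8%), beside 18.4% of all named coding genes. A low-list one was carried by 1 (3.23%; 0.0816 to 16.7%), beside 3.59%. MED26 encodes the subunit that recruits elongation factors, and it had both. They lie at its lower end on chromosome 2. The high-list peak, of fold 3.36 (9 fragments; 4.12 to 17.1), runs from 60984670 to 60985075 inside the gene. That of the low list, of fold 2.98 (also 9 fragments), runs from 60983602 to 60983900 and stops 333 bp short of it. The peaks lie on either side of the gene end, 770 bp apart, and do not overlap. MED26 also held an interior low-list peak of fold 3.74 and an interior high-list peak of fold 2.56.

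MED9 had a high-list peak of fold 2.84 (9 fragments), 975 bp outside its upper end and so just inside the window. MED22 had one of fold 2.08 (9 fragments over 3.80 expected), which is also at the end of the ribosomal protein gene RPL7A. Interior high-list peaks were found in 8 genes (25.8%; 11.9 to 44.6%), beside 45.4% of all named coding genes with a body peak. MED27 had the most, 4, of fold 2.84 to 3.80. MED24 had an interior peak of fold 3.12 and a flanking one of 3.85 at the end of CSF3, and MED23 had a flanking one of 4.03 (q 0.0735). MED1, which binds nuclear receptors, had no peak of either list within 10 kb, and nor had 13 further Mediator genes, MED12 of the kinase module among them.

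Of 11 genes for pausing and elongation factors, 2 carried high-list gene-end peaks (18.2%; 2.28 to 51.8%), beside 18.4% of all named coding genes. A low-list one was found at 1 (9.09%; 0.230 to 41.3%), beside 3.59%, which the interval holds. CCNT1, the cyclin of P-TEFb, had a high-list peak of fold 3.70 (q 0.101; 11 fragments, 5.49 to 19.7) at 127 bp outside its upper end at chromosome 5, 14808551 to 14809080. CDK9, its kinase partner, had only a flanking high-list peak of fold 2.78, 6435 bp outside the gene. SUPT6H, the gene of a histone chaperone that travels with the polymerase, had 5 high-list peaks within 10 kb, of which the one inside its upper end had a fold of 2.34 (8 fragments). ELL2, of the super elongation complex, had a low-list peak of fold 2.45 (10 fragments) inside its upper end and no high-list peak within 10 kb. SUPT5H and ELL had interior high-list peaks of fold 2.70 and 2.66, and SUPT16H had flanking ones of 2.47 and 2.08. CCNT2, ELL3, NELFA and NELFE had no peak within 10 kb. Of the 2 SAGA genes, SUPT3H had 3 interior high-list peaks of fold 2.51 to 2.83 and 1 interior low-list peak of 3.64, and SUPT20H had none.

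The members' gene-end calls were set side by side by strength. The 19 high-list peaks at 17 genes had 6 to 11 fragments (median 9) and a fold of 1.91 to 4.03 (median 3.20), beside a median of 2.94 for the 2970 high-list peaks at an end of any named coding gene. The 10 low-list peaks had 8 to 15 fragments (median 10) and a fold of 2.45 to 4.59 (median 2.98), beside a median of 2.99 for 535 such peaks. POLR1A, POLR2G, GTF3C1, CDK7 and MED26 share the same value, 9 fragments over 1.98 expected, as do 5.27% of all high-list peaks, so they cannot be ranked. The fewest fragments that the low library would have needed for a call lay within the interval of all 19 high-list peaks, and above the count itself for 1 peak each of POLR2F, POLR2I, POLR3G, CDK7 and MED22. The absence of a low-list call at those genes can therefore not be read as a difference in occupancy. The high library's limit lay within the interval of 9 of the 10 low-list peaks, POLR1D being the exception. The lists do not hold the count of the other library at these places.

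**Figure D2:**
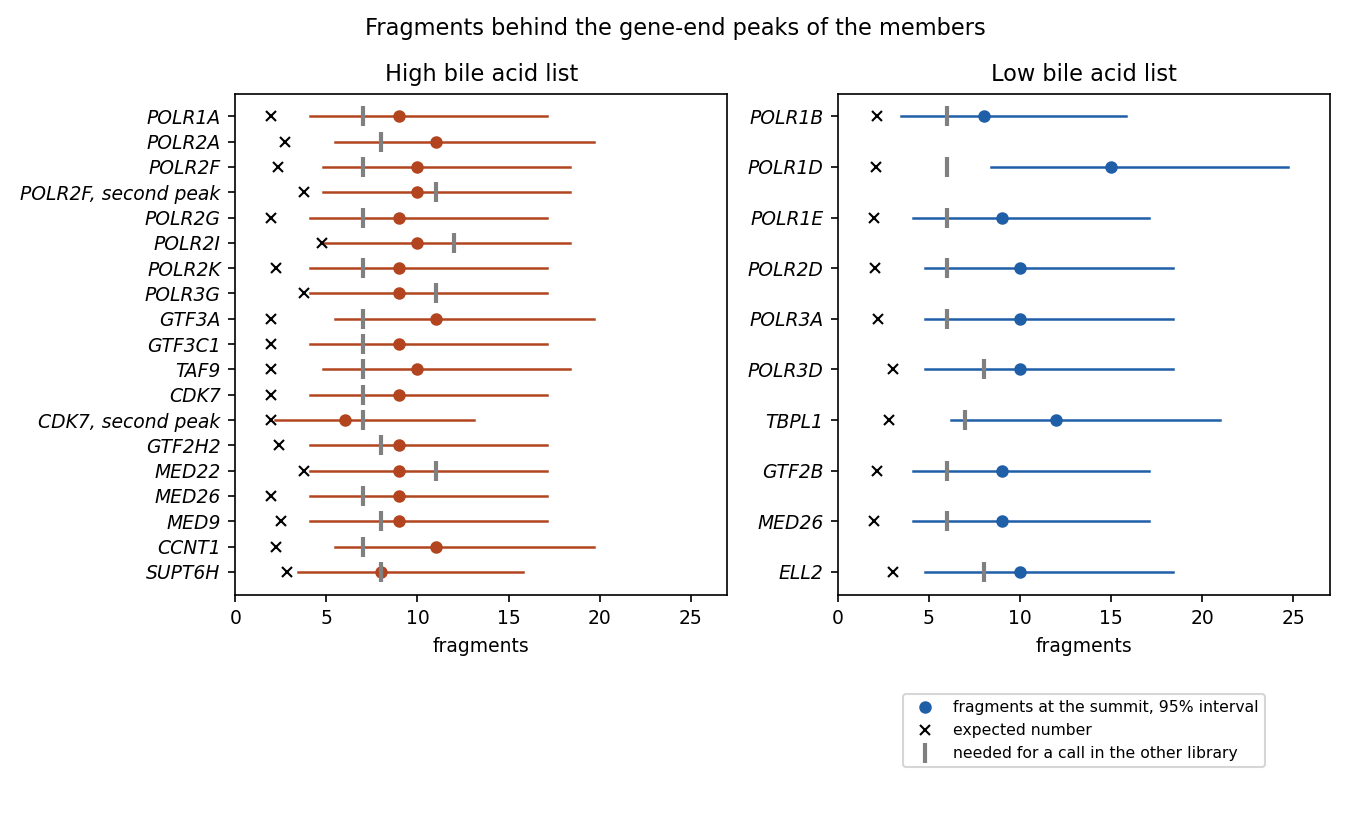
Fragments at the summit (x axis) of the 19 gene-end peaks of the high list (left) and the 10 of the low list (right), by gene in the order of complexes. Dots and lines are counts with exact Poisson 95% intervals, crosses are the expected numbers and grey ticks the fewest fragments needed for a call in the other library; POLR1D, with 15 fragments, is the peak whose interval lies wholly above its tick.

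Gene bodies were compared next. In the high list 35 members (29.7%; 21.6 to 38.8%) had a peak that overlaps the gene body, beside 45.4% of all named coding genes. In the low list 22 did (18.6%; 12.1 to 26.9%), beside 15.1%, and 13 did in both (11.0%), beside 10.6%. Body calls follow gene length. The median length was close, 23.3 kb for the members against 25.6 kb, but long genes were fewer among the members. Of the 118 members 11 were 100 kb and over, beside 2763 of the 16303 named coding genes, so shares were also read within length classes. Among members of 10 to 30 kb, 6 of 39 (15.4%; 5.86 to 30.5%) had a high-list body peak, beside 38.8% of all named coding genes of that length. Among those under 10 kb it was 4 of 31 (12.9%) beside 21.4%, among those of 30 to 100 kb 17 of 37 (45.9%) beside 53.6%, and among those of 100 kb and over 8 of 11 (72.7%) beside 78.7%. The high-list share was thus below that of all coding genes in every length class, and its interval left out that value in the class of 10 to 30 kb only. In the low list the corresponding shares were 3.23% beside 3.41%, 10.3% beside 8.42%, 29.7% beside 16.9% and 54.5% beside 41.2%, all within the intervals. Counted by summits, the members' bodies held 10.8 high-list summits per Mb (8.15 to 14.1) beside 14.6 for all named coding genes, and 4.33 low-list summits per Mb (2.71 to 6.56) beside 2.88.

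**Figure D3:**
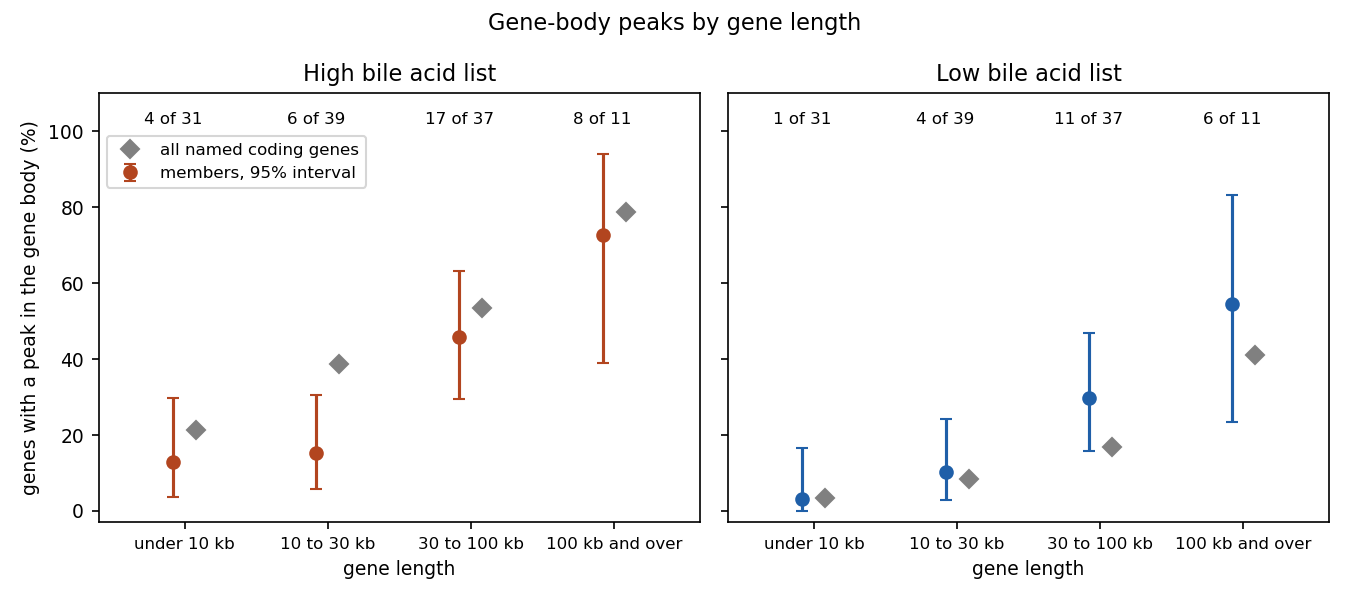
Share of genes with a peak in the gene body (percent, y axis) by gene length for the high list (left) and the low list (right). Coloured points are the members with exact binomial 95% intervals and counts above them, and grey diamonds are all named coding genes; both climb with length, from 12.9% and 21.4% under 10 kb to 72.7% and 78.7% at 100 kb and over in the high list.

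Within 10 kb of the gene, 72 members (61.0%; 51.6 to 69.9%) had a high-list peak, beside 62.8% of all named coding genes, and 34 (28.8%; 20.8 to 37.9%) had a low-list peak, beside 22.0%. By list, 46 members had high-list peaks only, 8 had low-list peaks only, 26 had both (22.0%, beside 16.6% of all named coding genes) and 38 had none. The 8 were POLR3A, POLR3F, GTF3C3, TBP, TBPL1, GTF2A1L, MED18 and ELL2 (6.78%; beside 5.42% of all named coding genes). The 38 without a peak (beside 31.8%) included 14 of 31 Mediator genes, 9 of 19 TFIID genes and none of RNA polymerase I. MED12, MED14, TAF1 and TAF9B lie on chromosome X, where 3.61% of the 609 named coding genes had a high-list peak within 10 kb, 0.493% a low-list one and 0.821% a high-list gene-end peak. None of the 4 had a peak of either list within 10 kb. The reason for the few calls on that chromosome was not tested.

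No peak of one list overlapped a peak of the other at any member. That is 0 of 39 low-list peaks within 10 kb of a member, which allows a share of up to 7.69% (3 counts of the total), beside 3.63% of the whole low list. It is 0 of 125 high-list peaks, which by the same rule allows up to 2.40%, beside 0.732%. At this number of peaks the absence was not distinguishable from the rate of the whole lists. A high-list peak had its edge within 1 kb of 6 of the 39 low-list peaks (15.4%; 5.86 to 30.5%). In the whole low list 8.16% overlapped a high-list peak or lay that close to one, a share that the interval holds. The 6 were at MED16 (49 bp apart), POLR3C (254 bp), POLR2D (259 bp), POLR3K (315 bp), MED8 (760 bp) and MED26 (770 bp).

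**Figure D4:**
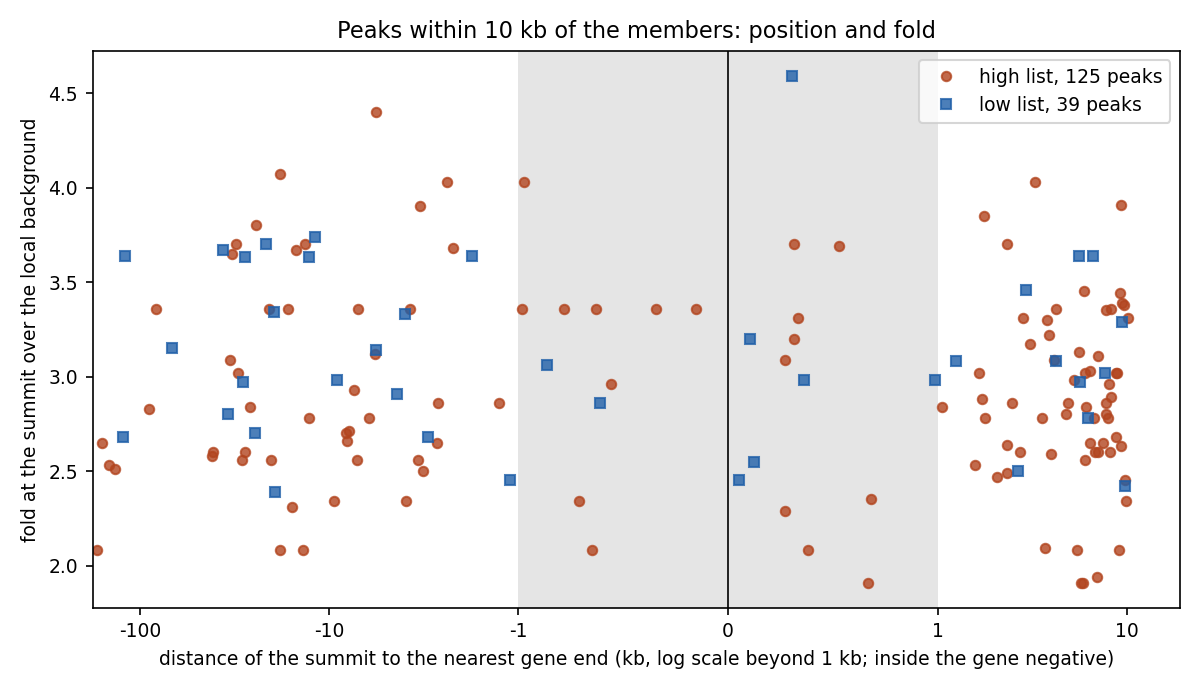
Distance of each summit to the nearest gene end (x axis, kb, log scale beyond 1 kb, inside the gene negative) against the fold at the summit (y axis) for the 125 high-list and 39 low-list peaks within 10 kb of a member. Grey marks 1 kb on either side of a gene end; the low-list peak of fold 4.59 is at POLR1D, and the high-list peak of fold 4.40, inside its gene, is at TAF4.

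A list of 58 annotated genes that act beside these complexes was counted in the same way. In the high list 15 of them had a gene-end peak (25.9%; 15.3 to 39.0%), beside 18.4%, and in the low list 4 did (6.90%; 1.91 to 16.7%), beside 3.59%. Integrator, which cleaves small nuclear RNAs and paused transcripts, had 6 of 14 genes in the high list (42.9%; 17.7 to 71.1%). INTS11, the gene of its endonuclease, had a fold of 4.14 (q 0.0310; 13 fragments over 2.38 expected) at chromosome 6, where CPTP also ends, and INTS1, INTS3, INTS5, INTS7 and INTS8 had a fold of 3.02 to 3.36. INTS12 was the one Integrator gene in the low list, with 2.82. Among elongation genes, SSRP1, the partner of SUPT16H in the FACT chaperone, had 3.64 (q 0.0735), AFF4 had 3.52 and HEXIM1, an inhibitor of P-TEFb, had 2.86, all in the high list. LEO1, of the PAF1 complex, had a gene-end peak in both lists, of fold 2.94 (high) and 2.67 (low), which do not overlap.

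RPAP3, an assembly factor of RNA polymerase II, was the one gene of either list of genes whose gene-end peaks overlapped between the libraries. The high-list peak had a fold of 3.39 (q 0.167; 10 fragments) and the low-list peak one of 2.74 (8 fragments), at chromosome 5, from 78065944 and 78066024. MAF1, the repressor of RNA polymerase III, had a high-list peak of fold 2.34, and RPRD1B a low-list peak of 3.64. ERCC2, ERCC3 and MNAT1, the rest of TFIIH, had no gene-end peak, and neither had UBTF, RRN3 and TTF1 of RNA polymerase I transcription.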

How the data were processed

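The authors' tools, per the submitters' processing notes, include MACS2 2.1.0, Bowtie 1.1.2, Trimmomatic 0.33 and bcl2fastq 2.17. Of the builds hg38 and Sscrofa11.1 in the notes, the pig build fits the peak coordinates and was used. No source used here gives the cutoff, and no p-value exceeded 0.00989. The deposited fold, a ratio, is taken at each summit against local background. Significance was deposited as −log10 p and −log10 q. The deposited score is a display value derived from p and was not used. The authors called peaks for each library, without pooling.

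Genes were placed by a RefSeq table for Sscrofa11.1 that gives start and end but no strand. A peak was assigned to a window by an overlap of at least 1 bp. Fragment numbers were solved from fold (with a pseudocount of 1) and p, with the low library's pileup multiplied by 0.881, and were whole for all 28283 and 5735 peaks within 0.002 in −log10 p. The fewest fragments for a call were taken at p of 0.01. The assignment to windows and the recovery of fragment numbers were tested on simulated data, and the fewest fragments for a call were not. Python 3.11.15, numpy 2.4.6, pandas 2.3.3 and scipy 1.17.1 were used.

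The members, complexes and lists were chosen with earlier results of these data known. The text names every member with a gene-end peak, POLR1D, POLR2A, TBP, CDK7, CDK9 and MED1 whatever their values, and up to 3 further members of each complex by the highest fold within 10 kb, of which 1 is not reported here. Other members, named to complete counts, and the genes named from the list of 58, were chosen after their values were seen. BRF1, SNAPC4 and INTS15 of that list were not found in the annotation. No sequence is shown, because no genome or promoter sequence was used here, and the planned start-site count, which needs strand, was not run.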

Additional observations from a re-analysis of the deposited data

How the results depend on the processing

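No paired analysis was possible because there is a single precipitated library per group and no result comes from a test. With peaks of q of 0.05 or less, the members with a gene-end, body or 10 kb peak numbered 0, 2 and 2 in the high list. In the low list they numbered 0, 0 and 0. Of the 16303 named coding genes 133, 352 and 587 had such a peak in the high list, and 0, 5 and 10 in the low list. In no case was the share of the members above that of all named coding genes. At a fold of 4 or more the members numbered 1 (GTF3A), 3 and 4 in the high list. These are 0.847%, 2.54% and 3.39%, beside 0.994%, 2.93% and 4.65% of all named coding genes. In the low list they numbered 1 (POLR1D), 0 and 1 (0.847%, 0% and 0.847%), beside 0.0920%, 0.233% and 0.337%. At q of 1e-05 or less the members numbered 0 in every case, beside at most 0.00613% of all named coding genes. With the high list shortened to the 5735 peaks of smallest p they numbered 5, 8 and 20, beside 5.19%, 16.1% and 24.1% of all named coding genes. That limit falls among 1491 peaks of equal p, 4.29e-05, of which 235 were kept by fold and position alone. With all of them left out (both tie rules were added with the data in view), the counts were 5, 8 and 20 (beside 5.13%, 15.8% and 23.6%), and with all kept 10, 15 and 28 (beside 5.75%, 18.3% and 27.1%). CCNT1, GTF3A, POLR2A, POLR2F and TAF9 were called at a gene end in each case, and CDK7, GTF3C1, MED26, POLR1A and POLR2G only with the equal peaks kept. Fewer peaks enter each of these counts by construction. A window of 3 kb gave 31 gene-end members in the high list (26.3%, beside 31.3%), and one of 500 bp gave 6 in the low list (5.08%, beside 2.32%). The other 15 alternatives of these counts stayed within 1.5 times, including summits in place of overlap, the removal of chromosome X (chosen after the data were seen) and a stricter overlap for shared peaks, under which the number of shared peaks stayed at 0. By complex, the high-list gene-end count was lower in 8 of 13 complexes at a fold of 4 or more, a limit that cannot raise it. The other complexes, SL1, TFIIA, TFIIB with TFIIE and TFIIF, TFII-I and SAGA, had no such peak as deposited and so could not fall. Each gene-end call rests on 15 fragments or fewer, which sets the width of its counting interval.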

Other observations

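Several members lie next to each other, which the comparisons by complex do not show. CDK7, TAF9 and GTF2H2, genes of TFIIH and TFIID, lie within 291 kb of chromosome 16, at 47410136 to 47700926. All 3 had a high-list gene-end peak, so that they make up 3 of the 17 members with one. The interval held 9 high-list summits, or 31.0 per Mb (exact Poisson 95% interval 14.2 to 58.8), beside 10.1 per Mb over the chromosome. It held no low-list summit (0 to 12.7 per Mb), beside 2.09 per Mb, which that interval holds. GTF3A and POLR1D, which carry the strongest gene-end peaks of the high and the low list among the members, lie within 193 kb of chromosome 11, at 4853305 to 5045921. That interval held 4 high-list summits and 3 low-list summits, or 15.6 low-list summits per Mb (3.21 to 45.5) beside 2.15 over the chromosome.

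POLR2E and MED16, within 196 kb of chromosome 2, were not called at a gene end, although the interval held 13 high-list summits, or 66.3 per Mb (35.3 to 113) beside 13.8 over the chromosome. These intervals were chosen after their values were seen, among 10 groups of members with gaps of at most 300 kb. GTF3C4, GTF3C5 and MED22 also lie in a dense one, of 27.6 high-list summits per Mb (15.1 to 46.3) beside 10.1 over chromosome 1. MED29 with SUPT5H had 41.0 (8.46 to 120) beside 16.4, and MED20 with TAF8 27.2 (7.41 to 69.7) beside 13.7, rates that the intervals hold. Lower values were found for MED18 with TAF12, 3.86 (0.0978 to 21.5) beside 16.4 over chromosome 6, and GTF2IRD1 with GTF2I, 14.6 (3.99 to 37.5) beside 16.2 over chromosome 3. Their intervals also hold the rate of the chromosome, and the value for MED18 with TAF12 rests on 1 summit.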
